A study of Boechera stricta with 13 samples.

Results

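The transcripts described here are those that the read assembly of the study placed in loci of its own numbering, written XLOC and a number, in place of a gene of the *Boechera stricta* genome annotation. Every identifier that starts with XLOC in any of the 9 deposited tables was taken. They number 178 of the 3112 identifiers listed, and the other 2934 are genes of the annotation. Of the 178, 57 carry the identifier of an annotated *Boechera* gene in the name column (56 distinct genes), and 121 carry none. Both kinds were kept, and they are told apart below.

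*B. stricta* is a wild, mostly selfing perennial mustard related to *Arabidopsis*. RNA of whole shoots was sequenced from 13 plants of 2 populations, low elevation Black Hills and high elevation Big Horns, with 1 inbred line for each. The groups were control (watered, no larvae; 1 plant per population), herbivory (watered, fed on by larvae of the beet armyworm *Spodoptera exigua*; 1 plant per population), drought (2 plants per population) and the double challenge of drought and larvae (2 Black Hills and 3 Big Horns plants). By the run names in the labels each population had its own sequencing lane, so that lane and population cannot be told apart.

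An assembler such as Cufflinks joins overlapping spliced reads into transcripts without needing a gene model, and a merging step gives each locus that results a running number. Such loci can be genes that an annotation missed, pieces or extensions of annotated genes, or RNA that codes for no protein, and the number alone does not say which. Plants attacked by chewing larvae are known to switch on large sets of defence genes through jasmonate signalling, and drying plants to switch on others through abscisic acid. No file used here gives a position, a length, a sequence or a function for an XLOC transcript, so none is named by what it does and no sequence is printed.

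Levels are given in FPKM, the number of fragments of a transcript scaled by its length and by the fragments mapped. The tables list only what the Cuffdiff2 test called between 2 groups at a q, a p-value adjusted for many tests, of at most 0.05. Each row gives 1 fold change and the sum of both groups' FPKM, from which the level of each group was derived. A group therefore has 1 value, the spread between plants is unknown, the depth of each library is unknown, and no test over plants was run here. In whole shoots, fewer cells of a type and less RNA per cell cannot be told apart. The words rose and fell refer to listed rows.

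Under herbivory in watered plants, both populations pooled, 14 XLOC transcripts rose and 3 fell. That is 7.87% and 1.69% of the 178, against 8.39% and 4.08% of all listed identifiers. The transcripts were thus not listed more often than the rest. Their rises were wider in this pooled comparison: the median fold of the 14 that rose was 16.7, and that of all identifiers that rose was 4.17. Within each population they were not wider. The median herbivory rise was 6.10-fold against 7.4-fold over all identifiers in Black Hills, and 7.39-fold against 8.62-fold in Big Horns. Of the 14, 13 rose over 4-fold, 12 carried no *Boechera* gene, and the highest of them stood above every annotated gene of that table.

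XLOC_019306 was derived at 410 FPKM in the control and 58379 FPKM in the herbivory group, a 142-fold rise. No annotated gene in the same table had more than 5177 FPKM summed over both groups. XLOC_020398 stood at 78.5 FPKM in the control and 10422 FPKM under herbivory (133-fold). XLOC_002821 had the widest change of the 14, from 11.2 to 1973 FPKM (176-fold). These 3 transcripts ranged from 11.2 to 410 FPKM in the control group and were among the most abundant listed RNAs once larvae had fed.

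XLOC_002823, whose locus number follows next but one on XLOC_002821, rose from 387 to 7548 FPKM (19.5-fold). XLOC_020486 rose from 194 to 6093 FPKM (31.4-fold), and XLOC_007438 from 953 to 3820 FPKM (4.01-fold). The remaining 8 that rose had at most 196 FPKM in the herbivory group, the value of XLOC_017938. XLOC_002919 was the lowest of them, with 0.418 FPKM in the control and 4.29 FPKM under herbivory.

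**Figure D1:**
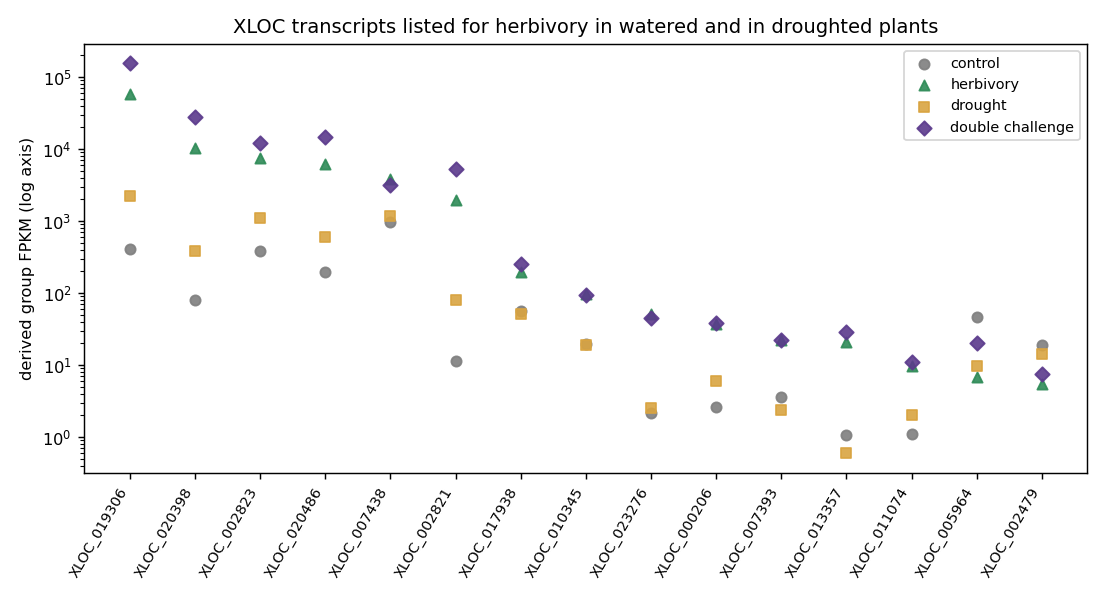
Derived group FPKM (log axis) of the 15 XLOC transcripts listed for herbivory both in watered and in droughted plants. Each marker is 1 group value: control and herbivory come from the watered comparison, drought and double challenge from the droughted one; XLOC_019306 spans 410 FPKM in the control to 153778 FPKM in the double challenge, and 13 of the 15 rose in both comparisons.

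Larvae on droughted plants gave the second, separate view of herbivory, since the double challenge and drought groups share no plant with the herbivory and control groups. There 60 XLOC transcripts rose and 48 fell, which is 33.7% and 27.0% of the 178 against 33.2% and 22.2% of all identifiers. The rises had a median of 3.63-fold (all identifiers 2.73-fold) and the falls of 2.40-fold (2.05-fold). Of the 17 transcripts listed in watered plants, 15 were also listed here (88.2% of the 17 and 13.9% of the 108). For all identifiers, 326 were listed in both, 84.0% of the watered list and 18.9% of the droughted one.

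Of the 15 transcripts, 13 rose in both, 1 fell in both and 1 went opposite ways. Among the 326 identifiers, 315 kept their direction (96.6%), against 14 of the 15 (93.3%), so keeping the direction was no mark of the XLOC transcripts. XLOC_019306 rose from 2200 to 153778 FPKM with larvae on droughted plants (69.9-fold). XLOC_020398 rose from 382 to 27684 FPKM (72.5-fold), XLOC_002821 from 78.7 to 5318 FPKM (67.6-fold), XLOC_020486 from 604 to 14769 FPKM (24.4-fold) and XLOC_002823 from 1112 to 11976 FPKM (10.8-fold).

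In these 5 transcripts the fold change was smaller than in watered plants while the level reached was higher. The drought group already stood above the control group, but pooled drought against control did not list XLOC_019306 and XLOC_020486. The same ordering of fold changes held in 10 of the 14 transcripts that kept their direction (177 of 315 over all identifiers). The median fold of the 13 that rose in both was 19.4 in watered and 10.8 in droughted plants, whereas the corresponding medians over all identifiers were 4.17 and 4.86. The differences of the fold changes themselves were not tested.

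**Figure D2:**
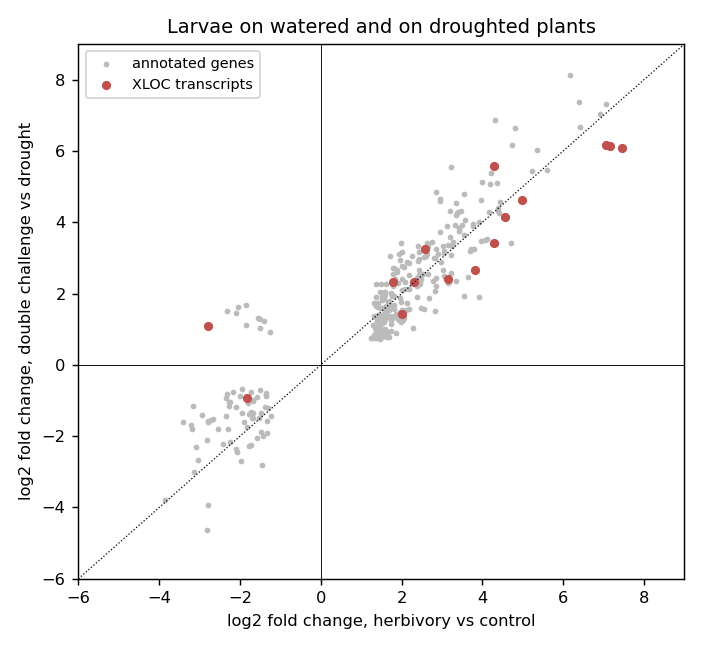
Log2 fold change with larvae in watered plants (x axis, herbivory against control) and in droughted plants (y axis, double challenge against drought), for identifiers listed in both; each point is 1 identifier and the dotted line marks equal change. The 13 XLOC transcripts that rose in both lie in the upper right, with 10 of the 14 that kept their direction changed more in watered plants, and XLOC_005964 is the one in the upper left.

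XLOC_005964, named for the annotated gene Bostr.15774s0262, was the one that turned. It fell from 46.2 to 6.69 FPKM with larvae on watered plants (6.90-fold) and rose from 9.52 to 20.4 FPKM with larvae on droughted plants (2.14-fold). It fell with drought alone too, from 45.1 to 10.1 FPKM, so its control level was the highest of the 4 groups. XLOC_002479 (Bostr.12659s0316) fell in both, from 19.1 to 5.35 FPKM in watered and from 14.0 to 7.37 FPKM in droughted plants. The third that fell in watered plants, XLOC_027231 (Bostr.7867s1470), went from 273 to 87.9 FPKM. All 3 that fell thus carry a *Boechera* gene, whereas 2 of the 14 that rose do, against 57 of all 178. The balance was the other way in the longer list of larvae on droughted plants. There 27 of the 60 that rose and 10 of the 48 that fell carry one.

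The widest fall with larvae on droughted plants was that of XLOC_028344, from 5839 to 347 FPKM (16.8-fold), and this transcript was listed in no other table. XLOC_010260 fell from 8.52 to 1.09 FPKM (7.85-fold). Of those named for a gene, XLOC_009546 (Bostr.2021s0094) rose most, from 4.13 to 128 FPKM (31.1-fold), among rows with at least 1 FPKM in both groups. XLOC_000049 had the highest level of all 178: its FPKM was 74326 in the drought group and 217774 in the double challenge, 2.93-fold higher.

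The double challenge against the control listed 29 XLOC transcripts that rose and 6 that fell (16.3% and 3.37% of the 178, against 18.8% and 7.65% of all identifiers). The median rise was 7.05-fold, against 3.56-fold over all identifiers that rose. XLOC_002821 went from 10.4 to 5365 FPKM (515-fold), the widest rise of any of the 178 in any table. XLOC_019306 followed, with 382 FPKM in the control and 155127 FPKM in the double challenge (406-fold). XLOC_000049 rose from 57901 to 218288 FPKM (3.77-fold), so this transcript was abundant in every group in which it was listed. XLOC_023276 (Bostr.0556s0190) rose from 1.87 to 44.5 FPKM (23.8-fold).

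The falls against the control were narrower. XLOC_007617 (Bostr.19424s0341) fell from 11.9 to 2.38 FPKM (5.02-fold), XLOC_028116 from 74.0 to 25.6 FPKM (2.89-fold) and XLOC_007050 from 71.9 to 35.8 FPKM (2.01-fold). Only the first passed 4-fold.

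The list for drought added to larvae was short as a whole, with 72 identifiers. Against herbivory, the double challenge listed 3 XLOC transcripts that rose and 0 that fell, 1.69% and 0% of the 178 against 2.15% and 0.161% of all identifiers. The median rise was 2.85-fold, below the 4.08-fold over all identifiers that rose. XLOC_019306 rose from 53726 to 153119 FPKM (2.85-fold), XLOC_020486 from 5611 to 14701 FPKM (2.62-fold) and XLOC_026203 from 8.77 to 31.9 FPKM (3.64-fold). The first pair thus rose again on top of a level that herbivory had already raised, and both stood far above the 878 FPKM that was the largest sum of an annotated gene in that table. XLOC_026203 was listed in this table alone.

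**Figure D3:**
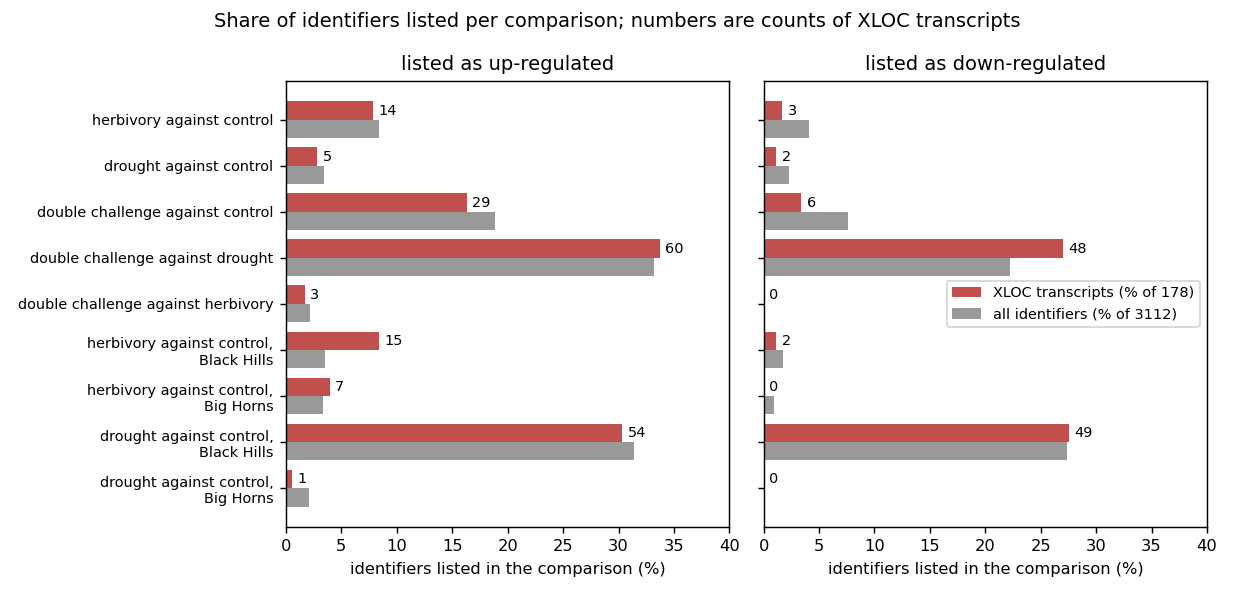
Share of the 178 XLOC transcripts (red) and of all 3112 listed identifiers (grey) that each of the 9 comparisons lists as up (left) or down (right), in percent, with the count of XLOC transcripts at each red bar. The red and grey bars lie close in most comparisons, for example 33.7% and 33.2% for rises with larvae on droughted plants, and the widest gap in ratio among rises with over 10 transcripts is that for herbivory in Black Hills, 8.43% and 3.53%.

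Drought alone, both populations pooled, listed 5 rises and 2 falls (2.81% and 1.12% of the 178, against 3.41% and 2.25% of all identifiers). The median rise was 3.11-fold, close to the 3.36-fold over all identifiers that rose. XLOC_002821 rose from 10.9 to 83.4 FPKM (7.62-fold), XLOC_020398 from 71.6 to 411 FPKM (5.74-fold) and XLOC_002823 from 378 to 1177 FPKM (3.11-fold). All 3 are transcripts that rose with larvae as well, by 19.5-fold to 176-fold in watered plants, and the herbivory and drought comparisons share their control plants. XLOC_009427 rose from 233 to 683 FPKM (2.93-fold) and XLOC_020571 (Bostr.30275s0153) from 104 to 300 FPKM (2.89-fold). Besides XLOC_005964, XLOC_000789 (Bostr.10273s0012) fell, from 54.6 to 22.8 FPKM.

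Within populations the drought lists were far from equal in length. In Black Hills 54 XLOC transcripts rose and 49 fell, 30.3% and 27.5% of the 178 against 31.4% and 27.4% of all identifiers. In Big Horns 1 rose and 0 fell, 0.562% and 0% against 2.09% and 0.161%. The whole lists differed in length as well, with 1830 identifiers in Black Hills and 70 in Big Horns. XLOC transcripts made up 5.63% of the first and 1.43% of the second. With 1 listed in Big Horns, whether their gap was wider than that of the lists cannot be read. The difference between populations in the drought response was not tested.

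The Black Hills drought changes were mostly small: 9 of the 54 rises and 6 of the 49 falls passed 4-fold, and the medians were 2.44-fold and 2.16-fold. Over all identifiers 67 of 977 rises and 117 of 853 falls passed 4-fold, with medians of 1.97-fold and 2.18-fold. XLOC_004575 rose most among rows with at least 1 FPKM in both groups, from 118 to 846 FPKM (7.17-fold). XLOC_002821 followed with a rise from 20.5 to 130 FPKM (6.35-fold). XLOC_017008 (Bostr.26833s0479) rose from 5.37 to 30.1 FPKM (5.60-fold). XLOC_028037 (Bostr.7867s1508) fell from 19.9 to 2.63 FPKM (7.58-fold), XLOC_004446 from 9.48 to 1.53 FPKM (6.20-fold) and XLOC_011039 from 15.9 to 4.55 FPKM (3.49-fold).

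XLOC_002823 was the only XLOC transcript listed for drought in both populations. It rose from 708 to 1672 FPKM in Black Hills (2.36-fold) and from 65.0 to 709 FPKM in Big Horns (10.9-fold). The drought level in Big Horns was thus about the control level in Black Hills. This transcript was listed in 7 of the 9 tables, the most of any of the 178.

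Herbivory within Black Hills listed 15 rises and 2 falls, 8.43% and 1.12% of the 178 against 3.53% and 1.77% of all identifiers. It is the comparison in which the share of XLOC transcripts that rose stood most above the background, and 7 of the 10 rows with the highest summed FPKM were XLOC transcripts. Within Big Horns 7 rose and 0 fell, 3.93% and 0% against 3.31% and 0.964%. Each of these comparisons set 1 plant against 1 plant, so the values are those of single plants and have no replicate check.

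In the Black Hills plants XLOC_019306 was at 835 FPKM in the control and 74237 FPKM under herbivory (88.9-fold). XLOC_020398 stood at 137 and 12204 FPKM (88.8-fold), XLOC_020486 at 375 and 8471 FPKM (22.6-fold), and XLOC_002821 at 20.7 and 2632 FPKM (127-fold). XLOC_013357 (Bostr.25463s0350) was the widest riser with a *Boechera* gene, from 1.03 to 37.5 FPKM (36.5-fold). XLOC_005964 fell from 66.6 to 3.41 FPKM (19.5-fold) and XLOC_028116 from 94.7 to 17.5 FPKM (5.42-fold).

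In the Big Horns plants XLOC_002823 rose most, from 67.1 to 3592 FPKM (53.6-fold). XLOC_011074 rose from 1.56 to 13.2 FPKM (8.44-fold) and XLOC_007438 from 329 to 2432 FPKM (7.39-fold). XLOC_010345 was the only XLOC transcript listed for herbivory in both populations, with 29.7 and 129 FPKM in Black Hills (4.34-fold) and 14.8 and 85.4 FPKM in Big Horns (5.76-fold). Over all identifiers 62 were listed in both, 37.6% of the Black Hills and 46.6% of the Big Horns list, against 5.88% of the 17 and 14.3% of the 7 XLOC transcripts.

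A transcript missing from a population's table need not lack RNA there, and the pooled tables allow that to be read. For the 62 identifiers listed for herbivory in both populations, the mean of both control plants was a median of 1.00 times the pooled control value, and the 5th and 95th percentiles of that ratio were 0.952 and 1.08. Only 1 of the 62 was an XLOC transcript, XLOC_010345, and its ratio of 1.14 was the highest of the 62. The level in the unlisted population was therefore computed as the pooled value doubled less the listed value, with a range that takes the lowest 5th percentile (0.946) and the highest 95th percentile (1.08) of that ratio over the control, herbivory and drought groups. For XLOC_002823, drought in Big Horns came to 682 FPKM this way, against 709 FPKM listed. The range was too narrow for XLOC_010345 in both groups and both populations. For its Big Horns control it was 7.17 to 12.3 FPKM, against 14.8 FPKM listed. For its Big Horns herbivory plant it was 53.6 to 79.0 FPKM, against 85.4 FPKM listed. Its listed Black Hills values also lay above their ranges. For the other XLOC transcripts no such check was possible, so their ranges rest on annotated genes.

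By difference, the Big Horns herbivory plant held much of the same RNA. XLOC_019306 came to 42520 FPKM there (range 36242 to 51595), XLOC_020398 to 8640 FPKM (7519 to 10260), XLOC_020486 to 3714 FPKM (3059 to 4661) and XLOC_002821 to 1313 FPKM (1101 to 1619). None of the 4 is listed for herbivory in Big Horns. In the Big Horns control plant the values were near the limit of the method. The ranges of XLOC_019306 and XLOC_020486 reached below 0, with upper ends of 49.3 and 43.7 FPKM. These upper ends are no maximum, since they rest on a ratio of 1.08 and XLOC_010345 had 1.14. XLOC_020398 came to 19.5 FPKM (11.1 to 31.7) from the herbivory table but to 7.53 FPKM from the drought table, with a range that reaches below 0 and up to 18.7 FPKM. XLOC_002821 came to 1.63 FPKM (0.430 to 3.37). All 4 control values lay below the 835, 375, 137 and 20.7 FPKM of the Black Hills control plant.

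For these 4 transcripts the control levels thus differed between the plants of both populations, and the pooled control value rested mainly on the Black Hills plant. XLOC_002823 behaved likewise, at 706 FPKM in the Black Hills control by difference (range 665 to 766) against 67.1 FPKM listed in Big Horns. XLOC_007438 came to 1576 FPKM against 329 FPKM. With 1 plant per population, the plant, its line and its lane cannot be told apart.

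The drought groups, with 2 plants per population, were compared the same way for the 38 XLOC transcripts listed both in the double challenge against drought and in Black Hills drought. Of these, 10 (26.3%) came out over 4-fold higher in Big Horns than in Black Hills drought plants. Over all 564 such identifiers the share was 4.08%, and over the 526 annotated genes 2.47%. At 2-fold, 11 (28.9%) were higher in Big Horns, against 11.6% of the annotated genes, and 7 (18.4%) were lower, against 4.94%. The medians were close, at 1.01 times for the XLOC transcripts and 1.08 times for the annotated genes, so they spread to both sides of the rest. The pooled drought value that gave the Big Horns level also entered the call that listed each identifier. This holds for XLOC transcripts and annotated genes alike. The shares therefore describe listed rows only, and a difference between the populations was not tested.

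**Figure D4:**
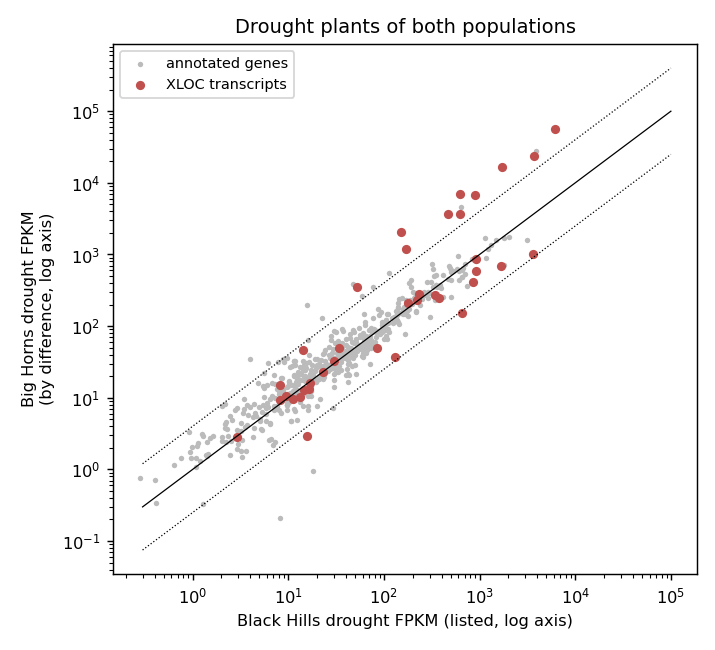
Drought FPKM of Big Horns plants by difference (y axis) against the listed drought FPKM of Black Hills plants (x axis), both on log axes, for identifiers in both tables; XLOC_007617, which came out below 0, is not drawn. The solid line marks equal levels and the dotted lines 4-fold either way; 10 XLOC transcripts lie above the upper dotted line, with XLOC_019300 the highest at 55963 against 6103 FPKM.

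The 10 transcripts higher in Big Horns, singled out after their values were seen, were between 5.92-fold and 13.5-fold higher there. XLOC_019300 came to 55963 FPKM in Big Horns against 6103 FPKM in Black Hills drought plants, XLOC_019298 to 23775 against 3723 FPKM and XLOC_020114 to 16621 against 1735 FPKM. XLOC_006053, the only one of the 10 that carries a *Boechera* gene (Bostr.1601s0003), had the widest gap, 2032 against 151 FPKM. The others were XLOC_019299, XLOC_019769, XLOC_021360, XLOC_012274, XLOC_009427 and XLOC_019297. The spread between the 2 Big Horns drought plants is unknown, so whether both were high cannot be read from these tables.

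Being listed for drought in Black Hills and for the double challenge against drought was a condition of the comparison. All 10 rose with drought in Black Hills, by 2.27-fold to 4.85-fold, and 7 of them rose with herbivory in Black Hills, by 4.15-fold to 6.10-fold. In either direction, 94 identifiers were in both Black Hills lists, of 1830 for drought and 165 for herbivory. Of the XLOC transcripts 13 were in both, of 103 and 17. Whether the 10 differ in this was not tested. XLOC_019300 stood at 2252 FPKM in the Black Hills control, 6103 FPKM under drought and 10189 FPKM under herbivory. XLOC_020114 stood at 655, 1735 and 3286 FPKM, and XLOC_019298 at 1619, 3723 and 7253 FPKM. Both comparisons share the 1 Black Hills control plant.

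Pooled over populations, all 10 were lower in the double challenge than in drought, by 2.31-fold to 7.24-fold. XLOC_019300 fell from 29310 to 7574 FPKM, XLOC_019298 from 12986 to 5093 FPKM, XLOC_020114 from 8669 to 2217 FPKM, XLOC_019299 from 3639 to 693 FPKM and XLOC_019769 from 3599 to 1558 FPKM. The pooled drought values of that comparison were the ones that chose the 10, so their direction there is a description and not a separate result. For XLOC_009427, the only one of the 10 listed for drought with the populations pooled, the control could be split too: 403 FPKM in Big Horns against 62.9 FPKM in Black Hills, a gap of 6.41-fold without drought or larvae.

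The 7 transcripts lower in Big Horns drought plants were XLOC_019306, XLOC_020398, XLOC_002821, XLOC_002823, XLOC_020486, XLOC_000083 and XLOC_007617. The first 5 rose with larvae on watered plants, by 19.5-fold to 176-fold. XLOC_019306 came to 1021 FPKM in Big Horns drought plants (range 771 to 1384) against 3638 FPKM in Black Hills, and XLOC_020398 to 152 against 657 FPKM.

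In 5 of the 9 tables the row with the highest summed FPKM was an XLOC transcript. They made up 5 of the 10 rows with the highest summed FPKM for herbivory, 3 for drought, 6 for the double challenge against control, 8 for the double challenge against drought and 2 against herbivory. The medians differed from list to list. In the double challenge against drought the median summed FPKM was 52.8 for the 108 XLOC transcripts and 59.9 for annotated genes, and in Black Hills drought it was 64.0 for the 103 and 47.8. In Black Hills herbivory it was 1363 for the 17 and 86.6, and in pooled drought 403 for the 7 and 57.6. No row was at 0 FPKM in either group. Since FPKM divides by a transcript length that was not analysed here, a high FPKM need not mean many fragments.

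**Figure D5:**
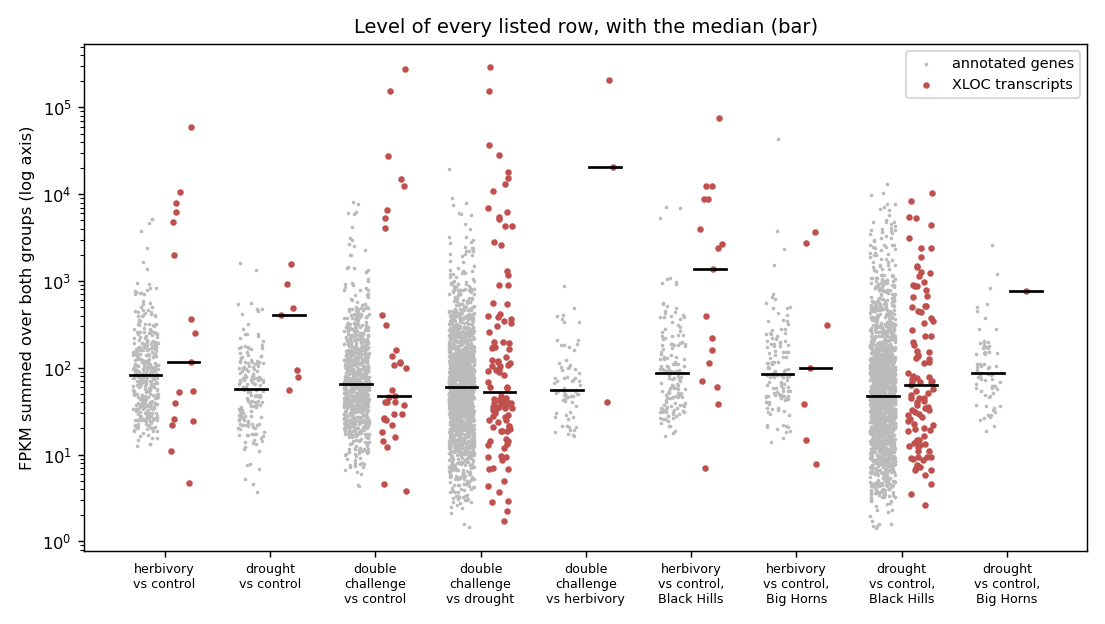
FPKM summed over both groups (log axis) of every listed row in each of the 9 comparisons, for annotated genes (grey) and XLOC transcripts (red), with the median of each as a black bar. In 5 of the 9 comparisons XLOC transcripts stand above all annotated genes, up to 292100 FPKM in the double challenge against drought, while the medians there are 52.8 and 59.9 FPKM.

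Most of the 178 were listed once: 113 (63.5%) stood in a single table, against 59.6% of annotated genes. Those in 4 or more tables numbered 14 (7.87%, against 8.62%). After XLOC_002823, the transcripts XLOC_002821, XLOC_019306, XLOC_020398 and XLOC_020486 stood in 6 tables each, and XLOC_005964 and XLOC_010345 in 5. The first 5 of these 7 rose with larvae in watered plants by 19.5-fold to 176-fold.

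The 57 transcripts with a *Boechera* gene in their name stood lower than the 121 without in some lists and higher in others. Among rises with larvae on droughted plants, 27 carried a gene and 33 none, with a median higher-group FPKM of 29.9 and 51.5. Among rises against the control in the double challenge the numbers were 9 and 20, with medians of 32.4 and 181 FPKM. Among falls with larvae on droughted plants, 10 carried a gene and 38 none, with medians of 142 and 64.0 FPKM. For 8 of the 57, the annotated gene of that name was listed in the same table as well, in 13 cases over all tables, and the direction was the same in all 13. With larvae on watered plants XLOC_013357 rose 19.4-fold and its namesake Bostr.25463s0350 18.1-fold, and XLOC_023276 rose 23.8-fold and Bostr.0556s0190 21.6-fold. The ratio of both fold changes lay between 0.549 and 1.41. Such pairs may share reads, and the tables do not show how fragments were divided, so their values are uncertain.

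The locus numbers carried some order of place. Read by number, the 57 named transcripts ran through 35 scaffolds at all 56 steps in the order of the scaffold numbers sorted as text, once leading zeros were left out. Numbers close together can therefore mean loci close together, although positions on the scaffolds were not analysed here. Between the 178 in number order, 34 of the 177 steps were of at most 10, and 10 were of 1. How many such steps an even spread of numbers would give was not computed.

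These steps made 22 runs that hold 56 transcripts, and the longest have 5. The run from XLOC_019297 to XLOC_019306 holds 4 of the 10 transcripts high in Big Horns drought plants (XLOC_019297 to XLOC_019300) and, as its last, the herbivory transcript XLOC_019306. With larvae on droughted plants the first 4 fell by 2.55-fold to 5.25-fold while XLOC_019306 rose 69.9-fold, so neighbours by number moved in opposite directions. In Black Hills drought all 5 rose, by 2.27-fold to 4.41-fold.

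The run from XLOC_002815 to XLOC_002823 holds XLOC_002821 and XLOC_002823, the pair that rose with herbivory, with drought and in the double challenge. In Black Hills drought its other members XLOC_002815 and XLOC_002819 rose from 1678 to 3743 FPKM and from 2844 to 7423 FPKM, while XLOC_002816 fell from 41.2 to 22.8 FPKM. XLOC_000049, the most abundant, has XLOC_000048 as its neighbour by number, which rose from 4.57 to 20.7 FPKM with larvae on droughted plants (4.52-fold). Over all runs, 2 or more members stood in the same table in 23 cases, and all of them moved in 1 direction in 14 of the 23. The 2 longest lists were near evenly split, with 54 rises and 49 falls for Black Hills drought and 60 and 48 for larvae on droughted plants. The share for rows taken regardless of number was not computed, so the 14 are a description only.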

How the data were processed

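RNA-seq of 13 whole shoots was compared by treatment and population as the labels name them. Reads were aligned by the authors with TopHat2, transcripts were assembled with Cufflinks2 and merged with Cuffmerge2, and Cuffdiff2 tested the groups. FastQC 0.10.1 and TopHat2 stand in the submitters' processing notes. The build of the genome was not given in the sources used here. What the authors deposited are 9 tables that hold called rows. Their fold column is a linear ratio of the group FPKM, the deposited FPKM is the sum over both groups, and the deposited q-value is a false discovery rate from Cuffdiff2. The fold changes printed are these deposited ratios.

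Each sum was divided between its groups according to the fold change and its direction, which gave 1 FPKM per group. Tables were joined by identifier. All 76 values of a group shared by 2 tables lay within 10% of the factor of that pair, which ranged from 1.00 to 1.09 over 10 pairs. Values by difference took pooled values scaled to the herbivory or drought against control table. The splitting was tested on simulated tables. Percentages are of the 3112 identifiers listed anywhere, since the number of genes tested is unknown.

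Named transcripts are, per comparison and among rows with at least 1 FPKM in both groups, the 2 widest rises and falls without a *Boechera* gene and the 1 widest of each with one. Added to these were the transcript in the most tables, those listed in both populations for a treatment, the 3 most abundant, and the 5 most abundant of the 31 listed in opposite directions. Other transcripts were named after their values were seen. The members and lists were chosen with earlier results of these data known. The alternatives set for the counts and medians were fold, q and FPKM thresholds, pseudocounts and the exclusion of rows with a *Boechera* gene. The tables pair no identifier with a gene symbol. Computations used pandas 2.3.3 and numpy 2.4.6 under Python 3.11.15, with plots by matplotlib 3.10.9.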

Additional observations from a re-analysis of the deposited data

How the results depend on the processing

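The number of XLOC transcripts listed moved by over 1.5 times under some of the alternatives. The FPKM limits removed no listed XLOC transcript in any comparison, so they say nothing about dependence on low values. At a q of at most 0.01 it was 10 of 17 for herbivory, 2 of 7 for drought, 22 of 35 for the double challenge against control, 55 of 108 against drought, 0 of 3 against herbivory, 7 of 17 for Black Hills herbivory, 4 of 7 for Big Horns herbivory and 53 of 103 for Black Hills drought. At a log2 fold change of at least 2 it was 3 for drought, 21, 38 and 0 for the double challenge against control, drought and herbivory, and 15 for Black Hills drought. Without the transcripts that carry a *Boechera* gene it was 4 for drought, 22 for the double challenge against control and 71 against drought. The other 38 counts stayed within 1.5 times, and they include those under the FPKM limits, which removed nothing. The median log2 fold change for Big Horns drought, that of 1 transcript, was 3.45 without and 3.43 with a pseudocount of 1 FPKM, and 3.45 with 0.1 FPKM. The other 56 medians stayed within an approximate 95% interval of the main median, taken from the ranked values of the transcripts. That interval reflects transcripts and not plants, and with few transcripts it was their full range. Rises and falls were separated before each median was taken. None of these alternatives could therefore turn a direction, and they say nothing about how firm the directions are. The count of 10 transcripts over 4-fold higher in Big Horns drought plants was also 10 without scaling between tables, an alternative chosen after seeing the data.

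No paired analysis was possible because the tables hold 1 value per group and the labels give the plants no replicate numbers that pair them. Leaving out a plant was not possible for the same reason. Depth is unknown, so low FPKM carry an unknown counting error. Transcripts that Cuffdiff2 did not call are not listed, so absence from a table is no measurement.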
